A study of Homo sapiens with 6 samples.

Results

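The kinetochore is the protein assembly that joins a chromosome to spindle microtubules. The genes described here encode 35 of its proteins and were taken by name, as members of the inner layer, of the outer layer, or of the factors that load the centromeric histone CENPA. All 35 matched an Ensembl ID by symbol, out of 57773 IDs in the table. The RNA came from RPE1, a human cell line made from retinal pigment epithelium and kept dividing with telomerase, grown for 24 h with 2.5 µM Nutlin-3 or with DMSO, its solvent, in 3 libraries per group. Nutlin-3 keeps the ubiquitin ligase MDM2 from binding the transcription factor p53. Both groups are the same cell line in the same medium, and the labels name no genetic change in either. Values are RPKM, reads scaled by gene length and library size. The labels do not say whether the triplicates are separate cultures, so p-values cover only the spread among the 6 libraries, which can be technical.

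At the centromere, CENPA replaces histone H3 and is deposited by the chaperone HJURP with the MIS18 factors. A network of CENP proteins, the inner layer, sits on this chromatin throughout the cell cycle. The outer layer, built around the KNL1, MIS12 and NDC80 complexes, assembles on it for mitosis, binds microtubules and recruits the spindle checkpoint. Many of these genes are transcribed late in the cell cycle, and a promoter element named CHR, the cell cycle genes homology region, is known from such genes.

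The CHR letters are shown first because many of these promoters share them. RefSeq promoter windows of GRCh38.p14, 250 bases before to 50 after a transcription start, were given for 29 of the members (33 windows). CENPM, KNL1, CENPL, MIS18A, CENPH and KNTC1 had no entry. The letters TTTGAA or TTCGAA, on either strand, stood in a window of 15 of the 29 genes, 51.7%, and of 19.5% of all 27305 genes with a window. The stretches below are 30 bases long, 5′ to 3′ on the strand of the gene, with the CHR letters in capitals (TTCAAA is TTTGAA on the other strand). They are from 4 genes of the outer layer, 3 genes of CENPA and its loading, and CENPW and CENPC of the inner layer.
NDC80, chr18:2571542-2571571, plus strand: ccggcggagaatTTCAAATTCGAAcggctt
NUF2, chr1:163321958-163321987, plus strand: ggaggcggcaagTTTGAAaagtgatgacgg
SPC25, chr2:168890416-168890445, minus strand: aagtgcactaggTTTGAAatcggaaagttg
ZWINT, chr10:56361273-56361302, minus strand: gtcgactgtgacTTCAAAgtaatcttaggg
HJURP, chr2:233854629-233854658, minus strand: gacgcaaatttgTTTGAAaggcccaatcag
CENPA, chr2:26786026-26786055, plus strand: cggagcgagcgaTTTGAAcgcgagcggcgc
OIP5, chr15:41332573-41332602, minus strand: gcctggcgtgtaTTCGAAaggaaggcgccg
CENPW, chr6:126340120-126340149, plus strand: gttggcggcggaTTCGAAcgttcggactga
CENPC, chr4:67545576-67545605, minus strand: tgtgtctccgggTTCAAAcccaggcacagg
In NDC80 and SPC25 the capitals begin 3 bases before the start, in OIP5 at base 2 after it and in HJURP 111 bases before it. The pentamer CCAAT, on either strand, stood in a window of 19 of the 29 genes, against 39.7% of all genes. An E2F site, searched as TTTCCCGC, TTTGGCGC, TTTCCCGG or TTTGGCGG on either strand, stood in 6 of the 29, against 5.21% of all genes. A match is a description of letters and not a binding site.

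The labels were checked first, in the same limma fit as the members. CDKN1A, the p53 target that encodes p21, rose by 2.84 on the log2 scale with Nutlin-3, MDM2 rose by 1.83, and the proliferation marker MKI67 changed by -1.86. Of the housekeeping genes, GAPDH did not pass (0.12, adjusted p = 0.0685), but passed as higher with voom on reads (0.12, adjusted p = 0.00294) and without Nutlin-3 replicate 1 (0.16, adjusted p = 0.0279), and ACTB rose by 0.28 (adjusted p = 0.00958, and 0.06 with adjusted p = 0.301 after quantile normalization). Library sizes behind the RPKM ran from 29.8 to 42.3 M. A member had between 99 reads (OIP5 in a Nutlin-3 library) and 16541 reads (CENPF in a DMSO library). Of the pigment epithelium markers, RPE65, RLBP1, TYRP1 and PMEL were at or near 0, BEST1 was under the minimum mean of 0.1 RPKM, and MITF, OTX2, KRT8, KRT18 and VIM were present. Of these 5, the keratin genes KRT8 and KRT18 rose with Nutlin-3, to 167.6% (adjusted p = 0.000125) and 174.2% (adjusted p = 0.000314) of the DMSO level, and OTX2 fell to 81.9% (adjusted p = 0.0333). MITF (97.8%) and VIM (93.9%) did not pass, and VIM passed as lower with voom (adjusted p = 0.0324). Summed over the 10 pigment epithelium markers, of which VIM makes up most, the level ran from 498.3 to 548.8 RPKM in DMSO and from 505 to 538.5 RPKM in Nutlin-3 libraries, and the part of these markers in the members' change was not tested. Of other cell types, PTPRC, EPCAM and CDH1 were near 0 and CD3E and CDH5 were listed at 0.

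With Nutlin-3, 33 of the 34 members tested fell and none rose at an adjusted p under 0.05 (limma on log2(RPKM + 0.1), Benjamini-Hochberg over all genes tested, group means of n = 3). All 34 had a negative log2 fold change. Over all 19886 genes tested, 18.4% fell and 20.9% rose. The median log2 fold change was -1.35 over the members and 0.01 over all genes tested. By ratio of mean RPKM, 18 members stood at 35% of their DMSO level or less, 9 between 35% and 50%, and 8 above 50%. Members that fell and stood at 50% or less numbered 26 of the 34 tested, against 3.19% of all genes tested. In 33 of the 34, every Nutlin-3 library was below every DMSO library, against 25.7% of all genes tested. Limma voom on reads recovered from the RPKM tested all 35 and called 34 lower and none higher, against 24.3% lower over all genes. In bulk RNA, fewer cells that express a gene and less RNA per cell cannot be told apart.

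**Figure D1:**
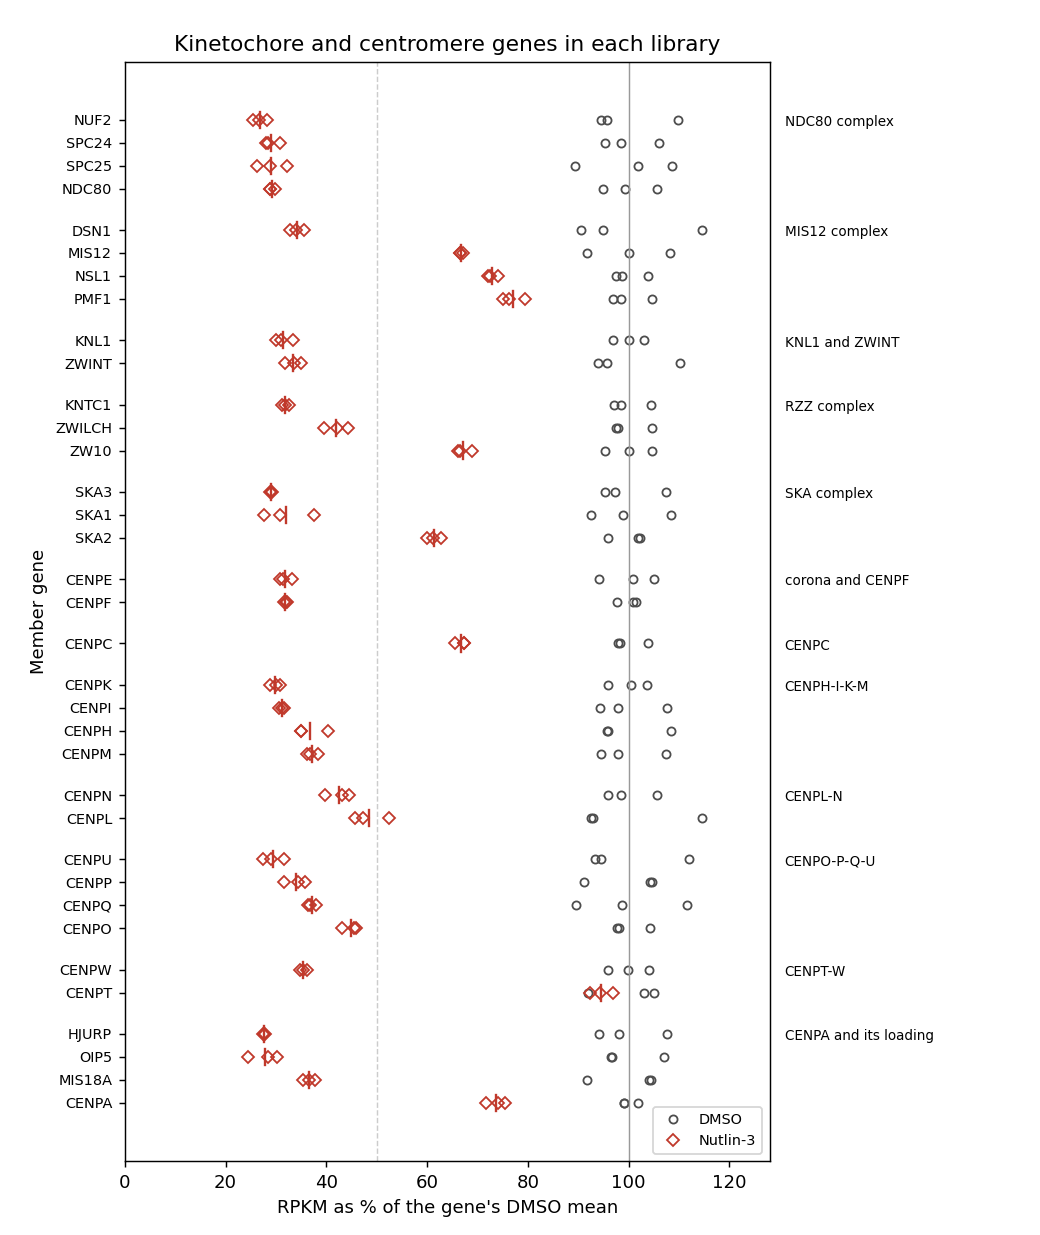
RPKM of each member in each library as a percentage of the gene's DMSO mean (horizontal axis), one row per gene, grouped by complex; open circles are the 3 DMSO libraries, red diamonds the 3 Nutlin-3 libraries, and the short red bar their mean. Most Nutlin-3 values lie left of the dashed line at 50%, NUF2 lowest at 26.8%, while CENPT at 94.5% overlaps its DMSO libraries.

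**Figure D2:**
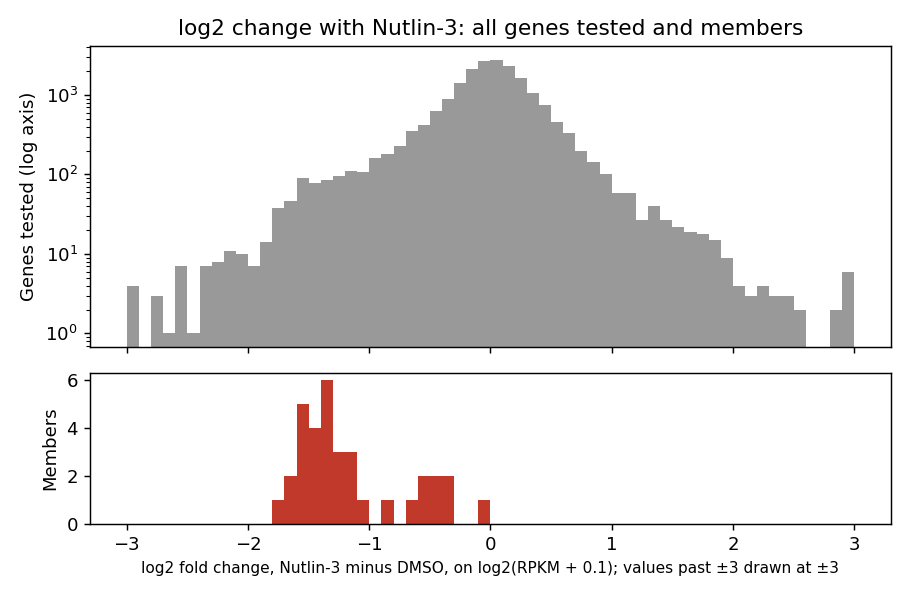
Number of genes in bins of log2 fold change (Nutlin-3 minus DMSO, on log2(RPKM + 0.1)), for all 19886 genes tested on a log axis (top) and for the 34 members tested (bottom). All genes centre near 0 while the members form a main group around their median of -1.35 and a smaller one between -0.65 (SKA2) and -0.07 (CENPT).

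The spread between replicates was small beside these changes. The median coefficient of variation over the members was 6.01% in DMSO and 3.22% in Nutlin-3. DMSO replicate 1 was the highest of the DMSO libraries in 31 of 35 members, and in 41.4% of all genes tested. Its level was a median of 107.9% of the mean of DMSO replicates 2 and 3 over the members, and 101.4% over all genes tested. Without it 33 members fell, with a median of -1.29.

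The 4 subunits of the NDC80 complex, the rod that grips microtubules, fell together. NDC80 (ENSG00000080986), which carries the microtubule-binding head, stood at 1.52, 1.37 and 1.43 RPKM in DMSO replicates 1 to 3 and at 0.415, 0.416 and 0.430 RPKM in Nutlin-3 replicates 1 to 3. NUF2 (ENSG00000143228), its partner in the head, stood at 1.02, 0.892 and 0.879 RPKM in DMSO and at 0.249, 0.237 and 0.263 RPKM in Nutlin-3. In both genes the Nutlin-3 libraries lay within a narrow band far below the DMSO libraries. SPC24 (ENSG00000161888) and SPC25 (ENSG00000152253), which anchor the rod to the inner side, fell from 1.65 ± 0.0913 to 0.480 ± 0.0242 RPKM and from 0.413 ± 0.0406 to 0.120 ± 0.0124 RPKM (mean ± SD, n = 3). The complex thus stood between 26.8% and 29.2% of the DMSO level in all 4 genes. The limma log2 fold changes were -1.56 (SE 0.044, adjusted p = 9.51e-05) for NDC80, -1.56 (adjusted p = 0.000134) for NUF2, -1.60 (adjusted p = 0.000101) for SPC24 and -1.22 (adjusted p = 0.000389) for SPC25. This scale understates the change of genes with a low RPKM such as SPC25, for which voom on reads gave -1.79.

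The MIS12 complex, which links the NDC80 rod to the inner layer, fell unequally. DSN1 (ENSG00000149636) stood at 1.98, 1.64 and 1.56 RPKM in DMSO and at 0.588, 0.567 and 0.614 RPKM in Nutlin-3, 34.2% of its DMSO level (log2 fold change -1.40, SE 0.091, adjusted p = 0.000359). Its partner NSL1 (ENSG00000117697) stood at 0.424, 0.403 and 0.399 RPKM in DMSO and at 0.303, 0.295 and 0.296 RPKM in Nutlin-3, 72.9% (-0.35, SE 0.037, adjusted p = 0.00150). MIS12 (ENSG00000167842) stood at 5.71, 5.28 and 4.84 RPKM in DMSO and at 3.51, 3.54 and 3.51 RPKM in Nutlin-3, 66.7% (-0.57, adjusted p = 0.00177). All 3 genes fell without overlap between the groups, DSN1 the furthest. PMF1 (ENSG00000160783), the fourth subunit, fell to 77.0%, but its reads cannot be separated from those of the read-through gene PMF1-BGLAP, which stood at 77.3%.

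KNL1 (ENSG00000137812), the scaffold on which the checkpoint kinase BUB1 docks, fell from 1.27 ± 0.0383 to 0.400 ± 0.0219 RPKM, 31.5% of its DMSO level (log2 fold change -1.46, adjusted p = 9.63e-05). ZWINT (ENSG00000122952), which binds KNL1 and helps to recruit the RZZ complex, fell from 21.8 ± 1.94 to 7.28 ± 0.334 RPKM, 33.5% (-1.56, adjusted p = 0.000162). The kinesin CENPE (ENSG00000138778), a motor of the outermost corona that moves chromosomes to the spindle equator, fell to 31.8%. CENPF (ENSG00000117724), a large corona protein, stood at 6.38, 6.13 and 6.33 RPKM in DMSO and at 2.01, 1.98 and 2.02 RPKM in Nutlin-3, 31.9%. With the most reads of the members, it also had the smallest standard error of the main test among them (-1.60, SE 0.025, adjusted p = 6.60e-05).

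The RZZ complex, which brings dynein and the checkpoint proteins MAD1 and MAD2 to unattached kinetochores, also fell unequally. KNTC1 (ENSG00000184445), which encodes the ROD subunit, stood at 0.973, 0.918 and 0.904 RPKM in DMSO and at 0.291, 0.296 and 0.304 RPKM in Nutlin-3, 31.9% of its DMSO level (-1.38, SE 0.038, adjusted p = 9.51e-05). ZWILCH (ENSG00000174442) stood at 42.0% (-1.15, adjusted p = 0.000141). ZW10 (ENSG00000086827), which also acts in membrane traffic between the Golgi and the endoplasmic reticulum, stood at 0.915, 0.875 and 0.833 RPKM in DMSO and at 0.578, 0.582 and 0.603 RPKM in Nutlin-3, 67.2% (-0.50, SE 0.041, adjusted p = 0.000670). Each of the 3 fell without overlap, and ZW10 kept the highest share of its DMSO level.

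In the SKA complex, which tracks microtubule ends, SKA1 and SKA3 fell further than SKA2. SKA3 (ENSG00000165480) stood at 1.74, 1.54 and 1.57 RPKM in DMSO and at 0.473, 0.471 and 0.465 RPKM in Nutlin-3, 29% of its DMSO level. SKA1 (ENSG00000154839), the microtubule-binding subunit, stood at 1.34, 1.22 and 1.14 RPKM in DMSO and at 0.342, 0.380 and 0.463 RPKM in Nutlin-3, 32.0%. Its Nutlin-3 libraries had the widest spread of any member, with a coefficient of variation of 15.7%. SKA2 (ENSG00000182628) stood at 1.55, 1.46 and 1.55 RPKM in DMSO and at 0.954, 0.929 and 0.911 RPKM in Nutlin-3, 61.4% (-0.65, SE 0.035, adjusted p = 0.000224). As a layer, all 18 outer genes tested fell, by a median log2 fold change of -1.42.

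Of the 12 inner genes tested, 11 fell, with a median of -1.19. CENPC (ENSG00000145241), the long protein that reaches from CENPA chromatin to the MIS12 complex, stood at 0.312, 0.294 and 0.295 RPKM in DMSO and at 0.202, 0.202 and 0.197 RPKM in Nutlin-3, 66.7% of its DMSO level (-0.41, adjusted p = 0.00155; -0.59 by voom). The 4 genes of the CENPH, CENPI, CENPK and CENPM group fell further. CENPK (ENSG00000123219) stood at 29.9%, CENPI (ENSG00000102384) at 31.2%, CENPH (ENSG00000153044) at 36.7% and CENPM (ENSG00000100162) at 37.1%. Their median log2 fold change was -1.37.

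CENPN (ENSG00000166451), which reads CENPA nucleosomes directly, fell from 2.15 ± 0.107 to 0.915 ± 0.0519 RPKM, 42.5% of its DMSO level. Its partner CENPL (ENSG00000120334) fell from 0.617 ± 0.0777 to 0.299 ± 0.0214 RPKM, 48.5%. Among the 4 genes of the CENPO group, a peripheral branch, CENPU (ENSG00000151725), a docking site of the mitotic kinase PLK1, stood at 29.3%, CENPQ (ENSG00000031691) at 37.1% and CENPO (ENSG00000138092) at 44.8%. CENPP (ENSG00000188312) has a span of 295050 bases and a mean under 0.1 RPKM, so it was tested on its 263 to 969 reads per library. It stood at 33.9% (voom log2 fold change -1.55, adjusted p = 3.34e-14).

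The histone-fold pair CENPT and CENPW parted. CENPW (ENSG00000203760) stood at 2.43, 2.24 and 2.33 RPKM in DMSO and at 0.844, 0.812 and 0.824 RPKM in Nutlin-3, 35.4% of its DMSO level (log2 fold change -1.39, SE 0.038, adjusted p = 9.51e-05). CENPT (ENSG00000102901), which binds DNA with CENPW and recruits NDC80 through its long arm, stood at 1.93, 1.89 and 1.69 RPKM in DMSO and at 1.73, 1.70 and 1.78 RPKM in Nutlin-3. DMSO replicate 3 was the lowest of all 6 libraries, and the groups overlapped. At 94.5% of its DMSO level it was the 1 member tested that did not pass (-0.07, SE 0.055, adjusted p = 0.346; voom -0.08, adjusted p = 0.196). Without DMSO replicate 3 it passed as lower (-0.13, adjusted p = 0.0480).

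Of the loading factors, HJURP (ENSG00000123485), the chaperone that carries new CENPA, stood at 5.33, 4.86 and 4.66 RPKM in DMSO and at 1.37, 1.36 and 1.37 RPKM in Nutlin-3, 27.6% of its DMSO level (-1.78, SE 0.053, adjusted p = 9.63e-05). OIP5 (ENSG00000104147), which encodes MIS18-beta, stood at 0.529, 0.586 and 0.530 RPKM in DMSO and at 0.134, 0.166 and 0.156 RPKM in Nutlin-3, 27.8%. MIS18A (ENSG00000159055), the other MIS18 subunit, fell to 36.6%. The groups were far apart in all 3 genes, and HJURP had nearly the same value in each Nutlin-3 library.

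CENPA (ENSG00000115163) appeared to fall much less than its chaperone. Its deposited values were 1.25, 1.22 and 1.22 RPKM in DMSO and 0.882, 0.911 and 0.929 RPKM in Nutlin-3, 73.8% of the DMSO level (-0.40, SE 0.030, adjusted p = 0.000514). The span behind these RPKM, 36779 bases with introns, holds 99.97% of the length of SLC35F6, a transporter gene on the same strand. How such overlaps were counted shows in genes that lie inside another gene without sharing an exon. In 131 of 131 such pairs on the same strand, with at least 600 reads in the inner gene, the outer gene had at least as many reads, against 47.0% of 253 pairs on opposite strands. Reads of the inner gene thus appear to have been counted to both genes when on the same strand, and not generally when on opposite strands. SLC35F6 had 64.3% as many reads as the CENPA span and rose (0.22, adjusted p = 0.00496).

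The reads of the CENPA span less those of SLC35F6 were 967, 624 and 694 in DMSO and 187, 201 and 181 in Nutlin-3. RPM here are reads scaled only to the library size behind the RPKM. In RPM the difference is 22.9, 20.9 and 21.4 in DMSO and 5.92, 5.61 and 5.96 in Nutlin-3. The groups lay far apart, and the mean fell from 21.8 ± 1.01 to 5.83 ± 0.188 RPM, 26.8% of the DMSO level. With these reads in place of the deposited ones, voom gave a log2 fold change of -1.90 (adjusted p = 8.91e-16), against -0.44 (adjusted p = 1.45e-08) for the reads as counted. The subtraction was chosen after the values were seen, and reads that span both genes are removed with it. Of the other members, CENPN holds an RNA gene with 12.4% as many reads inside its span on the same strand and KNL1 one with 4.25%. Without these reads they stood at 42.2% and 31.8% of the DMSO level. On the opposite strand, OIP5, CENPP, CENPO, CENPN, CENPT, CENPU and ZWILCH share at least 10% of their exon length with other genes.

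**Figure D3:**
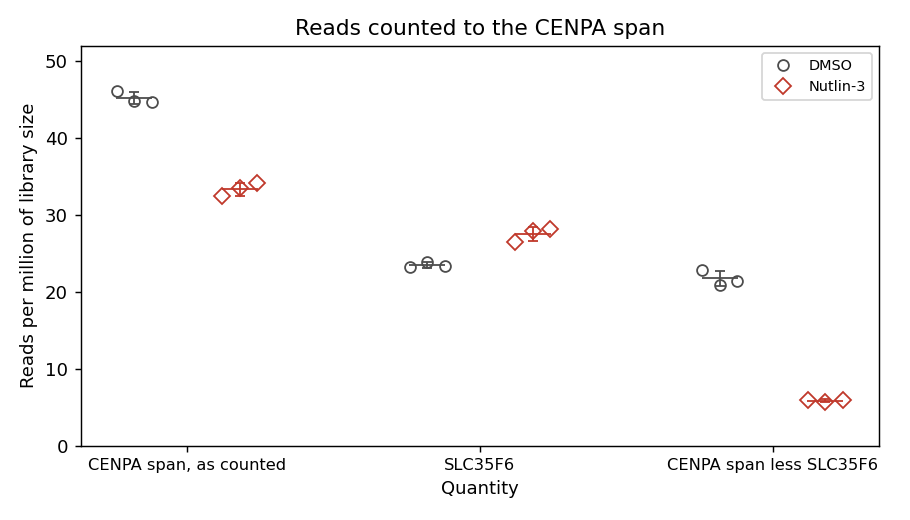
RPM (vertical axis, from 0) counted to the CENPA span, to SLC35F6, and to the CENPA span less SLC35F6. RPM are reads scaled to the library size behind the RPKM. Points are libraries, and bars are mean ± SD of n = 3. The span as counted stands at 73.8% of its DMSO level with Nutlin-3 and SLC35F6 at 117.3%, while the difference between them stands at 26.8%.

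Ratios of partner subunits within a library do not depend on how libraries are scaled, and 18 pairs were compared. In 14 pairs the groups did not overlap, with p = 0.1 in the 2-sided exact permutation test, the smallest that 3 against 3 libraries allow, and 0.129 adjusted over the 18 pairs. None can pass 0.05 in this design. The 14 include HJURP to CENPA, CENPO to CENPP, NDC80 to NUF2 and PMF1 to MIS12, whose limits are given below. How often the ratios of other gene pairs separate the groups was not tested, so 14 of 18 is not shown to be particular to partner subunits. The CENPW to CENPT log2 ratio was 0.34, 0.25 and 0.47 in DMSO and -1.04, -1.06 and -1.11 in Nutlin-3, a change of -1.42. DSN1 to NSL1 changed by -1.09, SKA3 to SKA2 by -1.08, KNTC1 to ZW10 by -1.08, SKA1 to SKA2 by -0.95 and ZWILCH to ZW10 by -0.68. In each of these the first gene lost more than its partner, in all 3 Nutlin-3 libraries against all 3 DMSO libraries.

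Other pairs moved less or not beyond their spread. OIP5 to MIS18A changed by -0.40, CENPU to CENPQ by -0.34, CENPI to CENPM by -0.25, CENPH to CENPK by 0.30 and PMF1 to MIS12 by 0.20, again without overlap. The PMF1 reads cannot be separated from those of PMF1-BGLAP, so PMF1 to MIS12 may not be a ratio of subunits alone. CENPO to CENPP changed by 0.40 and NDC80 to NUF2 by 0.12, and both changed sign with a pseudocount of 0.1 RPKM in the ratio. That pseudocount is larger than the CENPP level itself, a mean of 0.085 RPKM in DMSO and 0.029 RPKM in Nutlin-3. Voom on reads gave a log2 fold change of -1.16 for CENPO and -1.55 for CENPP. For NDC80 and NUF2 it gave -1.778 and -1.905. The groups overlapped for SPC24 to SPC25 (-0.003, exact p = 0.9), ZWINT to KNL1 (0.09, exact p = 0.4), SKA1 to SKA3 (0.13, exact p = 0.5) and CENPL to CENPN (0.20, exact p = 0.2). HJURP to CENPA changed by -1.42 with the deposited values and by 0.04 (exact p = 0.6) once the reads of SLC35F6 were subtracted.

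**Figure D4:**
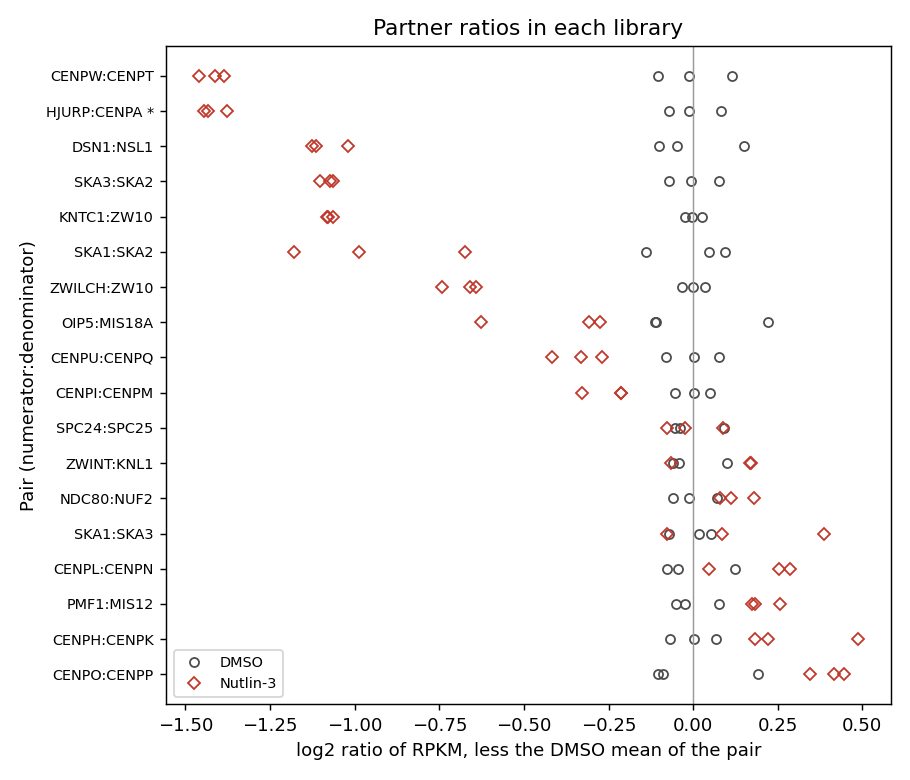
log2 ratio of RPKM of partner subunits in each library, less the pair's DMSO mean (horizontal axis); circles are DMSO and diamonds Nutlin-3 libraries, and the asterisk marks the pair whose CENPA values hold reads of SLC35F6. CENPW:CENPT, DSN1:NSL1, SKA3:SKA2 and KNTC1:ZW10 lie more than 1 unit to the left with Nutlin-3, while SPC24:SPC25 stays at its DMSO level within the spread. In PMF1:MIS12, which has no asterisk, the PMF1 reads cannot be separated from those of PMF1-BGLAP.

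The members that stood above 50% of their DMSO level were SKA2, MIS12, CENPC, ZW10, NSL1, CENPA, PMF1 and CENPT. Of these 8, all of which had a promoter window, 3 held the CHR letters (CENPA, CENPC and ZW10), 6 held CCAAT and 3 an E2F site. Of the 21 members at 50% or less with a window, 12 held the CHR letters, 13 held CCAAT and 3 an E2F site. CENPA, whose CHR letters are shown above, counts here by its deposited value. The 5 members with a window and none of these letters lay at both ends of the range: CENPI stood at 31.2%, CENPE at 31.8%, DSN1 at 34.2%, NSL1 at 72.9% and CENPT at 94.5% of the DMSO level.

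Further genes of the structure gave a wider range. Of 15 other kinetochore and centromere genes tested, 13 fell and 1 rose, against 18.4% and 20.9% of all genes tested. The median log2 fold change of the 15 was -0.61. Reads shared with overlapping genes were examined for the members only, not for these genes. The largest falls were those of SPAG5 (astrin, a SKAP partner) at 33.5% of its DMSO level, whose span partly overlaps another gene on the same strand, and of the shugoshins SGO1 at 30.3% and SGO2 at 33.4%, which protect centromeric cohesion. NDEL1, a dynein regulator, rose to 109.8% (0.11, adjusted p = 0.0297), a call lost when any 1 library was left out (adjusted p from 0.0532 to 0.0944). RSF1, named after its value was seen, stood at 109.0% and did not pass (0.10, adjusted p = 0.107), but passed as higher with voom (0.13, adjusted p = 0.0125). Of 11 genes of the spindle checkpoint and the chromosomal passenger complex, which act on the outer layer, 10 had a mean of at least 0.1 RPKM. All 10 fell, with a median of -1.55. Voom on reads called 11 of 11 lower, against 24.3% of all genes. Among them the kinase gene AURKB stood at 28.3%, CDCA8 (borealin) at 28.9% and the checkpoint gene BUB1B at 29% of the DMSO level. These were the largest falls of the 11, which ran up to 68.9% with a median of 32.3%.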

How the data were processed

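The authors deposited RPKM for 6 libraries of stranded poly(A) RNA. CASAVA 1.8.2, TopHat2, edgeR and hg19 are named in the submitters' processing notes, with no role stated. For the counter and the annotation, nothing is stated in the sources used here. The members and lists were chosen with earlier results of these data known. RPKM times the gene span of GENCODE 29, introns included, gave whole reads (within 0.01) for 90.1% to 90.4% of low values, against at most 33.5% with exon length, so the span was the length used and long genes have low RPKM. In the RPKM, library size was 42.3, 29.8 and 32.4 M (DMSO) and 31.6, 35.8 and 30.4 M (Nutlin-3). Whole reads were recovered for every gene above 0. For 8825 of them they are the smallest whole numbers, which can lie below the true reads by an integer factor. The library sizes above are not the totals of recovered reads. Their ratio to those totals was 1.03, 1.05 and 1.03 in DMSO and 0.98, 0.97 and 0.96 in Nutlin-3, and so differed by group. Scaling to the recovered totals was not tested, which bears on small changes such as those of CENPT, NDEL1, RSF1 and GAPDH.

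Genes whose mean was 0.1 RPKM or more entered limma 3.58.1 (trend, group as the only term, on log2(RPKM + 0.1)) in R 4.3.3, tested on simulated data, with Benjamini-Hochberg adjustment and a threshold of 0.05. Percentages of the DMSO level are ratios of mean RPKM. Voom on reads (mean of at least 10), other pseudocounts, filters and scalings, a replicate block and leaving out each library were alternatives. Named genes are all members, up to 3 in each direction from each of the companion lists, and the label checks. Within groups the chi-square per gene between libraries was 1.64 to 2.51, but 3.99 and 4.82 in pairs with DMSO replicate 1. It does not show whether the libraries are separate cultures, and each library was treated as 1 replicate. Symbols came from a gene name table. GENCODE 29 is of another build than the table and served for lengths and overlaps.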

Additional observations from a re-analysis of the deposited data

How the results depend on the processing

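Of 502 values of single members under another setting, 501 kept their direction and side of the threshold; the exception was CENPT without DMSO replicate 3. Between 33 and 34 members fell in each of the fits except those with a minimum mean of 0.5 RPKM, which left 27 lower because fewer were tested. The members' median of -1.35 became -0.88 with a pseudocount of 0.5, -0.94 with that pseudocount and a minimum of 0.5 RPKM, -1.51 with a pseudocount of 0.01, and -1.55 with voom (-1.56 with reads of genes inside the spans of CENPA, CENPN and KNL1 subtracted, chosen after seeing the data), as the pseudocount weighs on genes of low RPKM. The 1 rise among other kinetochore genes was 0 without a filter, with a minimum of 0.5 RPKM, with 0.5 for both, under the replicate block and without each library in turn (0 to 0), and 2 with voom (NDEL1 and RSF1). With a pseudocount of 0.1 in the ratio, NDC80 to NUF2 turned to -0.005 (exact p = 0.9). CENPO to CENPP turned to -0.552 (exact p = 0.1), where the pseudocount exceeds the RPKM of CENPP. HJURP to CENPA turned to 0.043 without SLC35F6 reads. Same-numbered libraries did not deviate together (r from -0.034 to -0.013), and under the replicate block 33 members fell, and 2566 genes fell and 2954 rose in all. BOD1, a kinetochore gene that fell (named after its value was seen), lost its call under the replicate block (adjusted p = 0.0772) and without Nutlin-3 replicate 2 (adjusted p = 0.0562).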
